A study of Homo sapiens with 11 samples.

Results

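The shRNA5 lines are NT2D1 cells, a human embryonal carcinoma line from a testicular germ cell tumour, that stably carry the tetracycline repressor TetR3 and a short hairpin RNA against L1TD1 switched on by doxycycline. The experiment covers 5 of the 11 arrays of the series, chosen by the prefix 5 in their titles. Of these, 3 were hybridised with RNA from cells given doxycycline (5_34dox+, 5_39dox+ and 5_40dox+) and 2 with RNA from cells without it (5_23dox- and 5_28dox-). The other 6 arrays hold the shRNA1 lines, 3 with and 3 without doxycycline, and enter only to estimate the spread and where the 2 hairpins are set against each other. All cells, induced or not, carried the repressor and a hairpin, and all were collected on day 6. The series has no array of cells without a hairpin and none of doxycycline given to cells without one. The design text speaks of 6 clones, each split into an induced and a non-induced sample, and of 1 sample that its submitters left out because it did not cluster with its group. Replicate numbers place 5_34dox+ with 5_23dox- and 5_39dox+ with 5_28dox-, while 5_40dox+ has no non-induced partner among the arrays analysed here. Taking that number as the clone is a reading of the titles, since no label states it.

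L1TD1 is an RNA-binding protein that derives from a LINE-1 retrotransposon and is abundant in pluripotent cells, where it occurs in complexes with LIN28A. Embryonal carcinoma cells are the malignant counterpart of the early embryo's pluripotent cells and share their transcription factors OCT4, SOX2 and NANOG. An inducible hairpin is processed to a small RNA that directs cleavage of its target mRNA, and doxycycline switches that process on.

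Each level below is the log2 of a bead intensity after background correction and quantile normalisation, and each difference is dox+ minus dox- on that scale. A probe was measured if its detection p was under 0.01 on at least 2 of the 5 shRNA5 arrays, which 14696 of 48803 probes met. Of these, 12417 were detected on all 5 arrays. Gene counts use the brightest measured probe of each of 10048 genes. On each array 13388 to 14513 probes were detected, and 5_40dox+ had the fewest. Of the embryonal carcinoma markers, all 11 of 11 represented on the array were measured. Of the markers of other cell types, 4 of 10 for blood and endothelium were measured, 4 of 8 for fibroblasts, 7 of 8 for neurons and 3 of 6 for epithelium. Among these markers PTPRC, PECAM1, LUM, DCN, KRT5 and KRT14 were below the detection rule. Those measured were CD34, CD68, VWF and TIE1 for blood and endothelium, and COL1A1, COL1A2, PDGFRB and THY1 for fibroblasts. For epithelium they were CDH1, MUC1 and KRT19.

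In shRNA5 cells 0 of 14696 probes (0%) differed between dox+ and dox- at an adjusted p of 0.05 in limma with Benjamini-Hochberg adjustment, and the smallest adjusted p was 0.722. At an unadjusted p of 0.05, 889 probes (6.05%) passed, 417 of them higher (2.84%) and 472 lower (3.21%). Data were also simulated for all 11 arrays in 4 groups, with the same spread in every group and no array that stood apart. In the shRNA5 contrast there, 93 of 100 probes shifted by 2 log2 units were called, and 41 of 100 shifted by 1. The measured dox+ group holds 5_40dox+, which stood apart, so these shares need not hold for it. The differences described below are therefore values that did not pass the test, and the words higher and lower give the side on which the arrays lay.

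**Figure D1:**
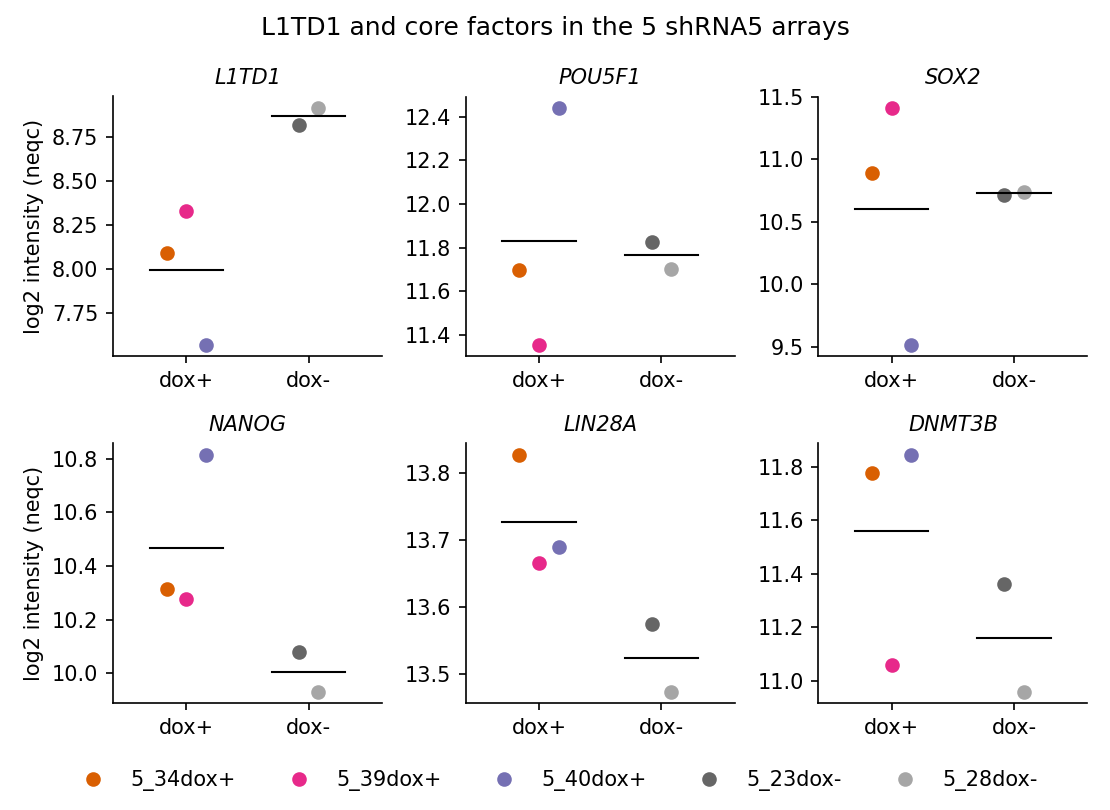
Levels (log2 intensity) of L1TD1 and 5 factors of pluripotent cells in the 5 shRNA5 arrays, dox+ left and dox- right, 1 point per array, with a line at the group mean. The y axes differ between panels and do not start at 0. L1TD1 lay between 7.57 and 8.33 on the dox+ arrays, below both dox- arrays at 8.82 and 8.91.

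L1TD1, the target of the hairpin, had a level of 8.09 on 5_34dox+, 8.33 on 5_39dox+ and 7.57 on 5_40dox+, against 8.82 on 5_23dox- and 8.91 on 5_28dox-. All 3 dox+ arrays lay below both dox- arrays, and 5_40dox+ lay lowest. The mean was 8.0 ± 0.39 in dox+ (SD, n = 3) and 8.87 ± 0.07 in dox- (SD, n = 2). The difference was -0.87 with a standard error of 0.25 and a 95% confidence interval from -1.41 to -0.32, which leaves 54.7% of the dox- signal. It did not pass in limma (adjusted p = 0.722). With 10 ways to split 5 arrays into 3 and 2, an exact permutation test (two-sided) gave p = 0.2, the smallest that this design allows. Within the replicate numbers the difference was -0.73 for 5_34dox+ minus 5_23dox- and -0.58 for 5_39dox+ minus 5_28dox-. In the shRNA1 lines it was -0.98, and the effects of the 2 hairpins differed by 0.11 with a standard error of 0.34 (adjusted p = 0.916 in limma). A single probe on the array reads L1TD1.

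The core factors of pluripotency differed in direction, and none passed the test. POU5F1, which encodes OCT4, had levels of 11.70, 11.36 and 12.44 on 5_34dox+, 5_39dox+ and 5_40dox+, against 11.83 and 11.70 on the dox- arrays. SOX2 had levels of 10.89, 11.41 and 9.52 on the dox+ arrays, against 10.72 and 10.74 on the dox- arrays. Both groups overlapped for these 2 genes, and 5_40dox+ was the array at the edge, highest for POU5F1 and lowest for SOX2. These SOX2 levels come from its brightest probe, which differed by -0.12, while a dimmer SOX2 probe differed by -0.56. NANOG lay higher on all 3 dox+ arrays, at 10.31, 10.28 and 10.81, against 10.08 and 9.93 on the dox- arrays, a difference of 0.46 with a standard error of 0.21 (adjusted p = 0.815 in limma) and of 0.29 without 5_40dox+. LIN28A, which blocks maturation of let-7 microRNAs, differed by 0.20, and DNMT3B, which sets new DNA methylation, by 0.40, with standard errors of 0.17 and 0.27. The measured probes of DNMT3B did not all share a sign. In the shRNA1 lines NANOG differed by -0.54, DNMT3B by -0.54 and SOX2 by -0.68. The effect of shRNA5 minus that of shRNA1 was 1.00 for NANOG, and this did not pass (adjusted p = 0.272 in limma).

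Over the whole list of 29 measured pluripotency factors, 17 lay higher and 12 lower, with a median difference of 0.02. Over all measured genes 51.7% lay higher and 48.3% lower, with a median of 0.01. The groups did not overlap for 4 of the 29 on the higher side and 3 on the lower side, beside 12.6% and 10.8% of all genes. The 4 higher were NANOG, LIN28A, KLF4 and PODXL, and the 3 lower were L1TD1, SALL2 and FOXO1. SALL2, FOXO1 and PODXL are factors or markers of pluripotent cells, and SALL2 and FOXO1 were picked out with their values in view.

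**Figure D2:**
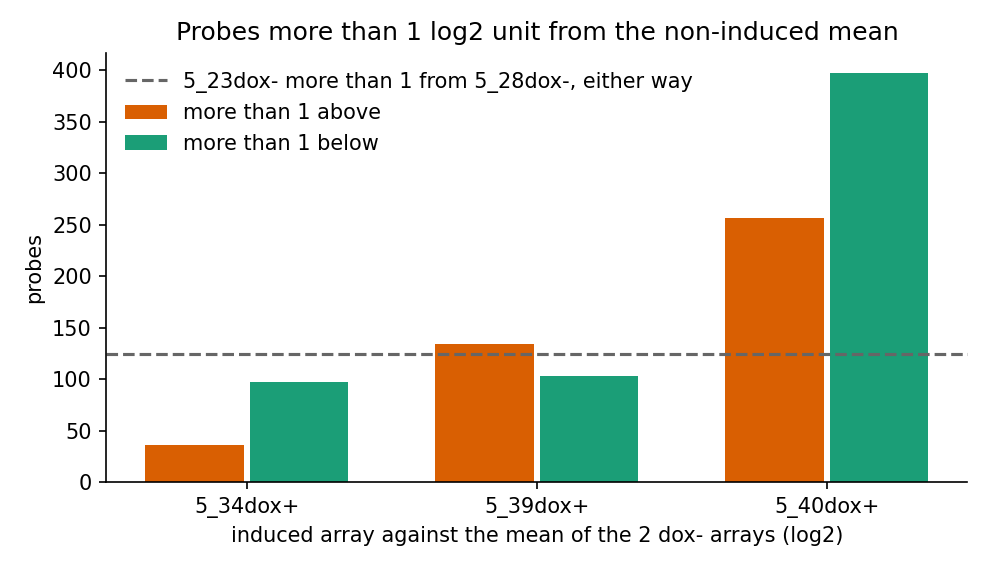
Number of measured probes whose level on an induced array lay more than 1 log2 unit above (orange) or below (green) the mean of the 2 dox- arrays. The counts are 36 and 97 on 5_34dox+, 134 and 103 on 5_39dox+, and 257 and 397 on 5_40dox+. The dashed line marks the 125 probes on which 5_23dox- lay more than 1 unit from 5_28dox- in either direction. The line sets 1 array against 1 array, while each bar counts 1 direction against a mean of 2 arrays, so their heights are unlike measures.

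The 3 induced arrays differed from each other more than the 2 non-induced ones did. On 5_34dox+ 36 probes lay more than 1 log2 unit above the dox- mean (0.245%) and 97 below it (0.66%). On 5_39dox+ the counts were 134 above (0.912%) and 103 below (0.701%). On 5_40dox+ they were 257 above (1.75%) and 397 below (2.7%), the highest of the 3 arrays on both sides. The 2 dox- arrays lay more than 1 unit apart, in either direction, on 125 probes (0.851%), which sets 1 array against 1 array and not against a mean. The 3 counts share the same dox- mean and are given side by side. All 3 dox+ arrays passed 1 unit together for 6 probes above (0.0408%) and 1 probe below (0.0068%). Against the array of the same replicate number, 45 probes lay more than 1 unit above on 5_34dox+ (0.306%) and 98 below (0.667%), and 230 above on 5_39dox+ (1.57%) and 153 below (1.04%). Both pairs passed together for 5 probes above (0.034%) and 3 below (0.0204%).

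The same order appeared between single arrays. The level of a measured probe differed by a median of 0.177 between 5_23dox- and 5_28dox-. It differed by 0.266 between 5_34dox+ and 5_39dox+, by 0.263 between 5_34dox+ and 5_40dox+, and by 0.345 between 5_39dox+ and 5_40dox+. From 5_23dox- the median distance was 0.191 for 5_34dox+, 0.273 for 5_39dox+ and 0.288 for 5_40dox+. By this measure 5_39dox+ lay nearly as far from the dox- arrays as 5_40dox+ did, and 5_34dox+ lay about as near to 5_23dox- as the dox- arrays lay to each other. What set 5_40dox+ apart was the number of large departures. It lay more than 1 unit above both other dox+ arrays on 112 probes (0.762%) and below both on 210 (1.43%). The matching counts were 96 above (0.653%) and 72 below (0.49%) for 5_39dox+, and 10 above (0.068%) and 29 below (0.197%) for 5_34dox+. Each array is therefore given on its own.

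**Figure D3:**
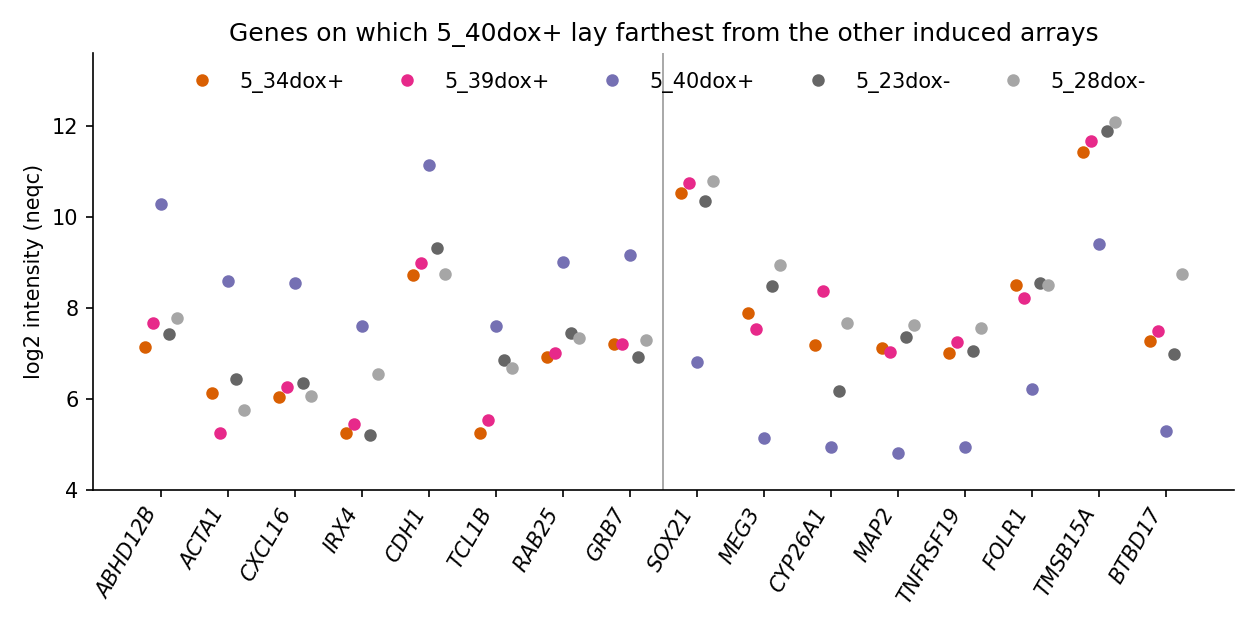
Levels (log2 intensity) of the 16 genes on which 5_40dox+ lay farthest above (left of the line) or below (right of it) the nearer of the other 2 dox+ arrays, 1 point per array, dox+ arrays left and dox- arrays right within each gene. The genes were chosen by this distance, so their position is a description. 5_40dox+ stands alone above or below both other dox+ arrays in each gene.

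Genes chosen because 5_40dox+ lay farthest from 5_34dox+ and 5_39dox+ are described here without a test. On the higher side stood CDH1, which encodes the epithelial adhesion protein E-cadherin, with a level of 11.14 on 5_40dox+. It had 8.71 on 5_34dox+ and 9.0 on 5_39dox+, against 9.31 and 8.75 on the dox- arrays, so the other 2 induced arrays lay within or just below the dox- range. RAB25, a small GTPase of epithelial membrane recycling, had 6.92, 7.01 and 9.02 on 5_34dox+, 5_39dox+ and 5_40dox+, against 7.46 and 7.35 on the dox- arrays. GRB7, an adaptor of receptor tyrosine kinases, had 7.21, 7.20 and 9.15 on the dox+ arrays, against 6.92 and 7.30 on the dox- arrays. ABHD12B, ACTA1 (skeletal muscle actin), CXCL16 (a chemokine), IRX4 (a homeobox factor) and TCL1B completed the 8, with levels of 7.59 to 10.29 on 5_40dox+. Without 5_40dox+ their differences from dox- were -0.19, -0.40, -0.06, -0.54 and -1.37 in that order. For TCL1B the other dox+ arrays thus lay below the dox- mean by more than 1 unit on average. EPCAM, an epithelial adhesion protein of pluripotent cells named with its values in view, had 12.10, 12.00 and 13.37 on the dox+ arrays, against 12.28 and 11.74 on the dox- arrays. The 3 measured epithelium markers, CDH1 among them, did not share so large a rise as a list. Their medians from the dox- mean were -0.06, -0.13 and 0.11 on 5_34dox+, 5_39dox+ and 5_40dox+, and 2 of the 3 lay higher on 5_40dox+.

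On the lower side SOX21, a relative of SOX2 that acts in neural progenitors, had 6.82 on 5_40dox+. It had 10.52 on 5_34dox+ and 10.75 on 5_39dox+, against 10.36 and 10.78 on the dox- arrays, so the other 2 induced arrays lay inside the range of the dox- arrays. MEG3, an imprinted long non-coding RNA, had 7.88, 7.53 and 5.14 on 5_34dox+, 5_39dox+ and 5_40dox+, against 8.49 and 8.95 on the dox- arrays. Here all 3 induced arrays lay below both dox- arrays, and 5_40dox+ was not detected. CYP26A1, which degrades retinoic acid, had 7.19, 8.38 and 4.95 on the dox+ arrays, against 6.16 and 7.68 on the dox- arrays. MAP2, a microtubule protein of neurons, had 7.12, 7.04 and 4.81 on the dox+ arrays, against 7.36 and 7.62 on the dox- arrays. CYP26A1, MAP2, TNFRSF19 and BTBD17 were likewise not detected on 5_40dox+. FOLR1, a folate receptor, and TMSB15A, a thymosin that binds actin, completed the 8, with levels of 6.21 and 9.40 on 5_40dox+.

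The mesoderm and mesenchyme list shows the same split by array. Its 14 measured genes had a median of 0.31 above the dox- mean on 5_34dox+, 0.14 above it on 5_39dox+ and -0.69 on 5_40dox+. On the first 2 arrays 10 and 9 of the 14 lay higher, and on 5_40dox+ 3 did. CDH2, N-cadherin, had 9.59 on both 5_34dox+ and 5_39dox+ and 7.90 on 5_40dox+, against 9.40 and 9.42 on the dox- arrays. ZEB2, a repressor of E-cadherin, had 6.40, 6.80 and 5.08 on the dox+ arrays, against 6.57 and 6.35 on the dox- arrays. MSX1, a homeobox target of BMP signalling, had 8.15, 7.59 and 5.77 on the dox+ arrays, against 8.60 and 9.30 on the dox- arrays, and was the only gene of the list whose groups did not overlap. On 5_40dox+ both ZEB2 and MSX1 lay under the detection level of 5.92, so these 2 were not detected there. With all 3 induced arrays the median of the list was -0.09, and without 5_40dox+ it was 0.23.

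Fibroblast markers had medians of 0.61, 0.24 and -0.53 from the dox- mean on 5_34dox+, 5_39dox+ and 5_40dox+, over the 4 measured. Of these, COL1A1, COL1A2 and PDGFRB are also members of the mesoderm and mesenchyme list, so the splits by array partly rest on the same genes. The part of fibroblasts in the values of that list was not tested. COL1A1, a fibrillar collagen, had 10.39, 10.03 and 8.07 on 5_34dox+, 5_39dox+ and 5_40dox+, against 9.80 and 9.55 on the dox- arrays. COL1A2 had 9.56, 9.61 and 8.23 on the dox+ arrays, against 8.60 and 9.23 on the dox- arrays. THY1 lay highest on 5_40dox+, at 11.03, and POSTN, LUM, DCN and COL3A1 were not measured. In RNA from a whole culture, fewer cells of a kind and less RNA per cell cannot be told apart.

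Genes of the ATF4 programme leaned to the higher side on all 3 induced arrays. ATF4 is a transcription factor made when phosphorylation of eIF2α slows general translation, as during amino acid shortage, misfolding in the endoplasmic reticulum or mitochondrial stress. It binds the C/EBP-ATF response element and turns on genes that make, import and charge amino acids, together with other transcription factors and secreted hormones. This group was already known to lie higher in the induced arrays of the whole series, so its direction here is not independent evidence. Below it is taken apart by role and by array.

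Promoter sequence is shown for 4 genes of these lists because each holds the core of that element. It was searched as TGATGNAA on both strands in the 300-base RefSeq promoter windows of GRCh38.p14, from 250 bases before a gene's start to 50 after it. Each stretch is 40 bases long and is written in the direction of the gene, with the match in capitals. They were taken from 10 genes with a match because their whole stretch, flanking bases included, lies before the start, nearest to it in ASNS.
ATF3: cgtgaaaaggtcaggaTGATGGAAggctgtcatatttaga
CHAC1: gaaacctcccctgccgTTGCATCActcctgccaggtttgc
ASNS: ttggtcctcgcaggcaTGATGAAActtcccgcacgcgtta
AARS1: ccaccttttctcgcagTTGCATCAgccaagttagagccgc
The ATF3 stretch spans chr1:212565200-212565239 on the plus strand, and the CHAC1 stretch chr15:40953246-40953285 on the plus strand. The ASNS stretch spans chr7:97872453-97872492 on the minus strand, and the AARS1 stretch chr16:70289670-70289709 on the minus strand. In CHAC1 and AARS1 the capitals are the reverse complement of the motif. The motif was present in 10 of the 46 promoters matched among the measured genes of the 5 lists (21.7%), in 140 of 8238 promoters of measured genes (1.7%) and in 1003 of 27305 promoters in all (3.67%). The 5 lists were chosen as genes of the ATF4 programme, so their share of matches is a description and no test. A match describes the letters of the window and shows no binding.

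**Figure D4:**
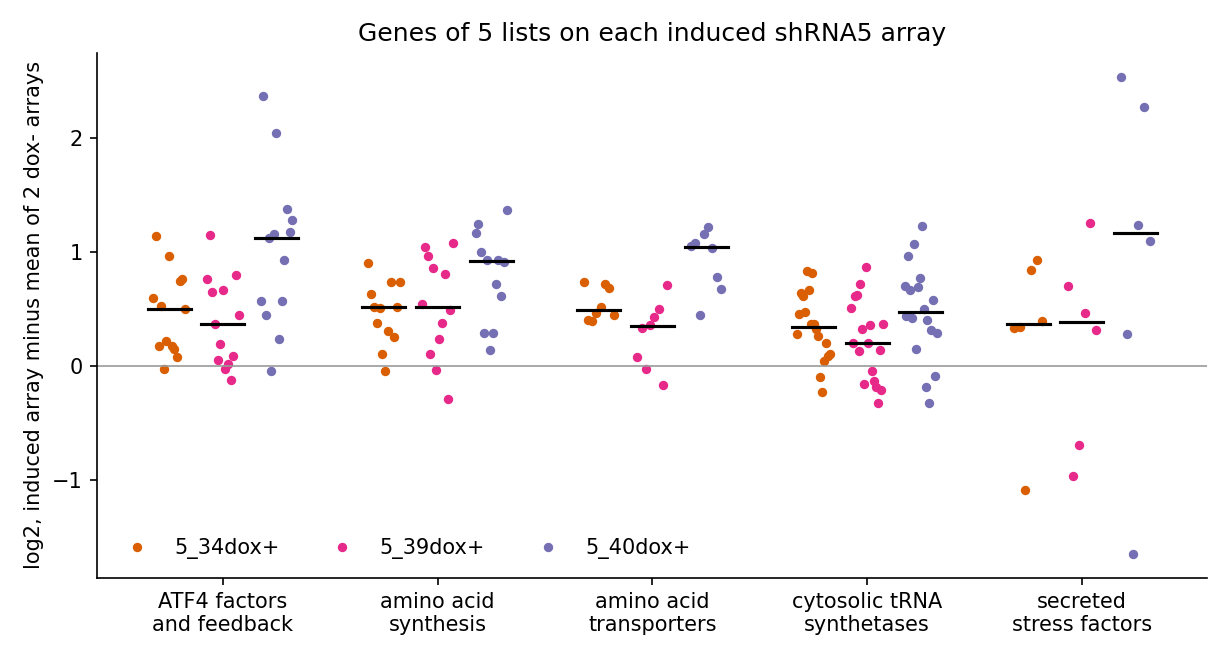
Difference in log2 level of each measured gene of 5 lists on 5_34dox+ (orange), 5_39dox+ (pink) and 5_40dox+ (purple), each from the mean of the same 2 dox- arrays, with a black line at the median of the list on that array. Medians lay above 0 in all 5 lists on all 3 arrays, from 0.20 for tRNA synthetases on 5_39dox+ to 1.17 for secreted factors on 5_40dox+.

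Of the 13 ATF4 transcription factors and feedback genes, 12 lay higher in dox+, and 8 had all 3 dox+ arrays above both dox- arrays, beside 12.6% of all measured genes. The median difference of the list was 0.64. By array it was 0.49 on 5_34dox+, 0.37 on 5_39dox+ and 1.12 on 5_40dox+. None passed the test. ATF5, a mitochondrial stress factor that ATF4 controls, had 10.09 and 10.10 on 5_34dox+ and 5_39dox+ and 11.31 on 5_40dox+, against 9.14 and 8.76 on the dox- arrays. It had the largest difference on the higher side among genes whose groups did not overlap and whose unadjusted p was under 0.01, at 1.55 with a standard error of 0.42 (adjusted p = 0.722 in limma). ATF4 itself had 12.61, 12.77 and 12.59 on the dox+ arrays, against 12.09 and 11.94 on the dox- arrays, a difference of 0.64. The induced arrays lay within 0.2 of each other for ATF4, with 5_40dox+ no higher than the rest. A pair of dimmer ATF4 probes gave 0.32 and 0.13, with groups that overlapped.

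TRIB3, a pseudokinase that damps ATF4, had 9.78, 9.48 and 10.86 on the dox+ arrays, against 8.72 and 8.92 on the dox- arrays. CHAC1, which degrades glutathione, was not detected on either dox- array and was at least 1.05-fold higher in dox+. For a probe not detected in a group, the fold is a bound set by the detection level of its arrays. Such a probe passed the detection rule through the other shRNA5 group alone. CEBPB, a partner of ATF4, had 12.50, 12.35 and 13.10 on the dox+ arrays, against 11.90 and 12.06 on the dox- arrays. DDIT3, the factor CHOP, had 9.81, 9.79 and 10.76 on the dox+ arrays, against 9.65 and 9.55 on the dox- arrays. For both, all 3 induced arrays lay above both dox- arrays, and 5_40dox+ lay farthest from them. ATF3, whose promoter stretch is printed above, had 9.43, 9.91 and 9.71 on the dox+ arrays, against 9.29 and 9.23 on the dox- arrays. CEBPG, another partner, differed by -0.01 and was the 1 gene of the list not higher. CEBPB, DDIT3, ATF3 and CEBPG were named with their values in view.

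All 12 measured genes of amino acid synthesis lay higher, 8 without overlap (12.6% over all genes), with a median of 0.70. The medians by array were 0.51 on 5_34dox+, 0.52 on 5_39dox+ and 0.92 on 5_40dox+. PCK2, the mitochondrial enzyme that makes phosphoenolpyruvate, had 10.57, 10.91 and 11.20 on the dox+ arrays, against 10.03 and 9.64 on the dox- arrays. ASS1, which makes argininosuccinate for arginine synthesis, had 9.37, 9.78 and 9.99 on the dox+ arrays, against 8.65 and 8.83 on the dox- arrays. Their differences were 1.06 and 0.97, with standard errors of 0.29 and 0.23. The dox+ arrays were closer to each other here than for ATF5 or TRIB3. Of the other measured ASS1 probes 1 gave 1.49 and 1 gave 0.09.

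MTHFD2, a mitochondrial folate enzyme, had 10.36, 10.43 and 10.55 on the dox+ arrays, against 9.75 and 9.50 on the dox- arrays. PSAT1, of serine synthesis, had 12.83, 13.18 and 13.26 on the dox+ arrays, against 12.34 and 12.31 on the dox- arrays. ASNS, asparagine synthetase, had 13.21, 12.85 and 13.48 on the dox+ arrays, against 12.39 and 12.23 on the dox- arrays. PHGDH, the first enzyme of serine synthesis, had a mean difference of only 0.07 and overlapping groups. ASNS and PHGDH were named with their values in view.

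All 8 measured amino acid transporters lay higher, 6 without overlap (12.6% over all genes), with a median of 0.61. SLC1A5, a glutamine transporter, had 9.25, 9.03 and 9.57 on the dox+ arrays, against 8.58 and 8.50 on the dox- arrays. SLC38A2, a neutral amino acid transporter, had 8.51, 8.78 and 8.74 on the dox+ arrays, against 8.12 and 8.01 on the dox- arrays. SLC3A2, the heavy chain that carries SLC7A5 to the membrane, had 10.75, 10.69 and 11.43 on the dox+ arrays, against 10.32 and 10.39 on the dox- arrays. SLC1A4, which carries serine and alanine, differed by 0.72, and by 0.47 without 5_40dox+. SLC1A5, SLC3A2 and SLC1A4 lay highest on 5_40dox+, and SLC38A2 on 5_39dox+.

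Of the 18 measured cytosolic tRNA synthetases, which load amino acids onto their tRNAs, 16 lay higher and 2 lower, with a median of 0.35. The groups did not overlap for 10 on the higher side and 1 on the lower side, beside 12.6% and 10.8% of all genes. GARS1, for glycine, had 13.17, 13.15 and 13.50 on the dox+ arrays, against 12.43 and 12.63 on the dox- arrays. IARS1, for isoleucine, had 12.17, 12.19 and 12.23 on the dox+ arrays, against 11.66 and 11.48 on the dox- arrays. AARS1, for alanine, had 13.72, 13.94 and 14.13 on the dox+ arrays, against 13.48 and 13.39 on the dox- arrays. The induced arrays lay close together for these 3 enzymes, with 5_40dox+ highest in each. MARS1, for methionine, differed by 0.87 and TARS1, for threonine, by 0.82, but the 2 dox- arrays were themselves 0.72 and 0.77 apart. Without 5_28dox- these differences were 0.51 and 0.43. Unlike this group, FARSB, for phenylalanine, lay lower on all 3 dox+ arrays, with a difference of -0.25. AARS1 and FARSB were named with their values in view.

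The 6 measured secreted stress factors went in both directions. INHBE, a subunit of activin E, had 7.35, 7.67 and 8.69 on the dox+ arrays, against 6.63 and 6.21 on the dox- arrays. STC2, stanniocalcin 2, had 10.13, 9.75 and 10.53 on the dox+ arrays, against 9.43 and 9.16 on the dox- arrays. STC1, stanniocalcin 1, lay on the other side, with 6.50, 6.90 and 5.94 on the dox+ arrays, against 7.59 on both dox- arrays. Their differences were 1.48, 0.85 and -1.14. GDF15, a stress hormone named with its values in view, had 8.54, 8.91 and 10.75 on the dox+ arrays, against 8.01 and 8.43 on the dox- arrays. On 5_34dox+ GDF15 exceeded the higher dox- array by little, and its mean difference of 1.19 came largely from 5_40dox+. FGF21 and ADM2 were not measured.

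Without 5_40dox+ the medians of the 5 lists were 0.41 for transcription factors and feedback, 0.59 for amino acid synthesis, 0.41 for transporters, 0.29 for tRNA synthetases and 0.43 for secreted factors. The groups then failed to overlap on the higher side for 8 of 13, 8 of 12, 6 of 8, 10 of 18 and 4 of 6 genes. With 2 arrays against 2, 20.9% of all genes did so on that side and 17.7% on the lower one. With all arrays, an unadjusted p of 0.05 was passed on the higher side by 6 of the 13, 8 of the 12, 4 of the 8, 6 of the 18 and 2 of the 6, beside 2.86% of all genes, and on the lower side by STC1 alone, beside 2.25%. In the shRNA1 lines the medians of the same lists were 1.00, 0.48, 0.43, 0.33 and 1.30. Those arrays belong to the series in which this group was already known to lie higher, so these medians are not independent evidence either.

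Stress programmes next to ATF4 were less uniform. Of the 13 endoplasmic reticulum chaperone genes 9 lay higher, with a median of 0.15, and the 2 that did not overlap are a share near the 12.6% of all genes. XBP1, the factor spliced by IRE1, had 11.71, 11.78 and 12.34 on the dox+ arrays, against 11.39 and 11.36 on the dox- arrays. On 5_40dox+ all 13 lay higher, with a median of 0.39, and on 5_39dox+ 6 did. Of the 18 mitochondrial chaperone, protease and import genes 14 lay higher and 6 did not overlap on that side, beside 12.6% of all genes, with a median of 0.20. LONP1, a matrix protease, had 11.99, 12.13 and 12.44 on the dox+ arrays, against 11.61 on both dox- arrays. HSPA9, mitochondrial HSP70, differed by 0.56 and TRAP1, mitochondrial HSP90, by 0.45, with standard errors of 0.21 and 0.19. Of the 14 cytosolic heat shock genes 8 lay higher and 6 lower, and HSPA1B, an inducible HSP70, differed by -0.51.

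Of the 14 genes of the NRF2 antioxidant list 11 lay higher and 8 did not overlap on that side, beside 12.6% of all genes. The median was 0.25, with medians by array of 0.19, 0.23 and 0.20 on 5_34dox+, 5_39dox+ and 5_40dox+. Unlike the ATF4 lists, it was no larger on 5_40dox+. NFE2L2, which encodes NRF2, had 9.24, 9.83 and 8.88 on the dox+ arrays, against 8.55 and 8.70 on the dox- arrays. GCLM, of glutathione synthesis, had 8.64, 9.12 and 9.09 on the dox+ arrays, against 8.29 and 8.48 on the dox- arrays, and its second probe gave the opposite sign. TXNRD1, thioredoxin reductase, had 10.66, 10.67 and 11.03 on the dox+ arrays, against 10.39 and 10.42 on the dox- arrays. A dimmer TXNRD1 probe differed by 0.04, against 0.38 for this one. The median in the shRNA1 lines was -0.08. Of 14 p53 targets 10 lay higher with a median of 0.18, and CCNG1, cyclin G1, had 9.12, 9.89 and 9.01 on the dox+ arrays, against 8.62 and 8.74 on the dox- arrays. Its difference of 0.66 was 0.39 without 5_39dox+.

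Histone genes leaned to the lower side. Of 13 measured, 2 lay higher and 11 lower, with 7 not overlapping on the lower side beside 10.8% of all genes, and a median of -0.33. H2AC6 had 5.88, 6.35 and 6.22 on the dox+ arrays, against 7.05 and 6.97 on the dox- arrays. H2BC5 had 8.64, 9.06 and 8.93 on the dox+ arrays, against 9.49 and 9.29 on the dox- arrays. All 3 induced arrays lay lower for both, and the medians by array were -0.39, -0.23 and -0.28. Histone genes are near-identical copies, so a probe may read several of them, and mRNAs of most replication-dependent histones lack the poly(A) tail that standard labelling primes on. In the shRNA1 lines H2AC6 differed by 0.70 and H2BC5 by 1.19, and the list by a median of 0.19.

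Of 18 neural genes 12 lay lower and 5 did not overlap on that side, beside 10.8% of all genes, with a median of -0.18. SOX11, a factor of immature neurons and progenitors, had 9.31, 9.53 and 8.16 on the dox+ arrays, against 9.88 and 10.22 on the dox- arrays. TUBB3, neuronal tubulin, had 11.28, 11.03 and 10.95 on the dox+ arrays, against 11.42 and 11.65 on the dox- arrays. SOX4 lay on the other side, with overlapping groups and a difference of 0.54, which was 0.13 without 5_23dox-. Of 7 neuron markers 3 lay higher and 4 lower, and ELAVL4 was not measured.

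Of 14 BMP targets 9 lay lower and 3 did not overlap on that side, beside 10.8% of all genes. Those were MSX1, BMP2 with a difference of -0.48, and ID2 with -0.33, and another ID2 probe gave the opposite sign. Of 20 WNT targets and regulators 12 lay lower, with a median of -0.02 on 5_34dox+, 0.16 on 5_39dox+ and -0.38 on 5_40dox+. SP5, a direct WNT target, had 5.60, 5.82 and 5.45 on the dox+ arrays, against 6.22 and 6.49 on the dox- arrays. It was not detected on 5_34dox+ and 5_40dox+. SFRP2, a secreted WNT binder, had 10.75, 11.32 and 10.59 on the dox+ arrays, against 10.53 and 10.30 on the dox- arrays. Of 27 glycolysis and hypoxia genes 18 lay lower, 5 without overlap beside 10.8% of all genes, with a median of -0.12. ANKRD37, a target of hypoxia-inducible factor, had 5.94, 6.03 and 6.26 on the dox+ arrays, against 7.22 and 6.78 on the dox- arrays.

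The antiviral interferon-stimulated genes followed single arrays. Of 18 measured, 14 lay higher on average, with a median of 0.12, but by array the median was 0.05 on 5_34dox+, -0.16 on 5_39dox+ and 0.49 on 5_40dox+. Without 5_40dox+ 7 lay higher and 11 lower. IFIT1 was not detected on either dox- array, and OAS3 had 7.29, 7.36 and 7.46 on the dox+ arrays, against 6.86 and 6.68 on the dox- arrays. OAS3, IFIT1 and DDX60, a helicase of viral RNA, were the 3 that did not overlap, a share near the 12.6% of all genes. TAP1, which pumps peptides to MHC class I, had 6.82, 7.10 and 8.27 on the dox+ arrays, against 6.62 and 7.03 on the dox- arrays. Of 11 MHC class I genes 8 lay higher, with medians by array of 0.01, -0.01 and 0.31.

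Cell cycle lists lay near 0. Of 28 genes of G1/S and DNA replication 12 lay higher and 16 lower, with a median of -0.05, against -0.41 in the shRNA1 lines, where 3 of 28 lay higher. RRM2, a subunit of ribonucleotide reductase, had 9.05, 8.90 and 8.86 on the dox+ arrays, against 9.37 and 9.23 on the dox- arrays. Of 30 mitosis genes 15 lay higher and 15 lower. CENPA, the centromeric histone H3, lay lower on all 3 dox+ arrays with a difference of -0.44, and TTK, a spindle checkpoint kinase, lay higher on all 3 with 0.47. Cytosolic ribosomal proteins had a median of -0.01, nuclear respiratory chain genes of -0.01 and mitochondrial ribosomal proteins of -0.08.

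Among genes of silencing, SETDB2, a histone methyltransferase, had 6.68, 7.09 and 6.90 on the dox+ arrays, against 6.13 and 6.00 on the dox- arrays. CBX3, a heterochromatin protein, had 9.91, 9.97 and 9.77 on the dox+ arrays, against 10.31 and 10.26 on the dox- arrays. In both genes the induced arrays lay within 0.5 of each other and clear of the dox- arrays. TNRC6B, which recruits deadenylases to Argonaute, had 8.18, 8.27 and 7.74 on the dox+ arrays, against 8.75 and 8.80 on the dox- arrays. AGO3, an Argonaute protein, differed by 0.64, with disagreement between its probes. XPO5, which exports microRNA precursors, had 8.97, 8.64 and 8.93 on the dox+ arrays, against 8.51 and 8.41 on the dox- arrays. As lists, 8 of 18 genes of DNA methylation and H3K9 silencing and 9 of 17 of microRNA processing lay higher, with medians of -0.05 and 0.02.

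Beyond the lists, genes were named by the size of the difference among those with an unadjusted p under 0.01 and no overlap. On the higher side, where ATF5 and INHBE came first, the centriole assembly protein CPAP had 7.44, 7.53 and 7.45 on the dox+ arrays, against 6.48 and 6.40 on the dox- arrays. The induced arrays lay within 0.1 of each other, and the difference was 1.03 with a standard error of 0.25 (adjusted p = 0.722 in limma). C1GALT1, which extends O-glycans, had 6.64, 6.46 and 7.07 on the dox+ arrays, against 5.80 and 5.66 on the dox- arrays. It was not detected on 5_28dox-. ALOX12, a lipoxygenase, had 6.16, 6.30 and 6.64 on the dox+ arrays, against 4.89 and 5.86 on the dox- arrays. It was not detected on 5_23dox-. Its difference of 0.99 was 0.51 without 5_23dox- and 1.48 without 5_28dox-. PCK2 and ASS1 are described above. MKX, NLRP12, SCAND2P, PNPLA4 and CYRIB were not detected on either dox- array, and were at least 1.56-fold, 1.32-fold, 1.12-fold, 1.21-fold and 1.21-fold higher in dox+. They passed the detection rule through the dox+ arrays alone, so their rank here rests on levels below detection in dox-.

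On the lower side PPP2CB, a catalytic subunit of protein phosphatase 2A, had 5.02, 6.30 and 5.00 on the dox+ arrays, against 7.03 and 7.43 on the dox- arrays. The difference was -1.78 with a standard error of 0.40, and only 1 of the 3 dox+ arrays detected it. MIAT, a long non-coding RNA, had 8.53, 7.78 and 7.49 on the dox+ arrays, against 9.40 and 8.83 on the dox- arrays. In the shRNA1 lines PPP2CB differed by -0.11 and MIAT by 0.90. LAMP5 had 7.68, 7.44 and 6.79 on the dox+ arrays, against 8.24 and 8.17 on the dox- arrays. MBNL3, a splicing factor, CFAP144 and LINC01132 differed by -0.88, -0.90 and -0.98. LINC02387, METTL2A and PTGR3 were detected on no dox+ array and were at least 1.65-fold, 1.29-fold and 1.55-fold lower there. They passed the detection rule through the dox- arrays alone, so their rank here rests on levels below detection in dox+.

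**Figure D5:**
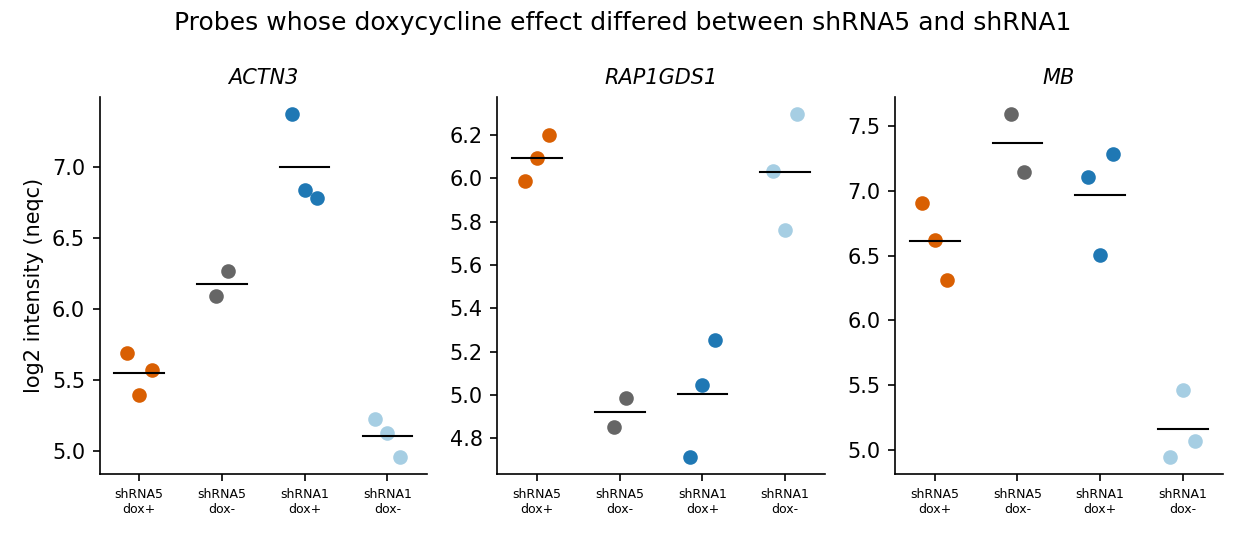
Levels (log2 intensity) of the 3 probes whose difference between dox+ and dox- was not the same for the 2 hairpins, with shRNA5 arrays left and shRNA1 arrays right, 1 point per array and a line at the group mean. The y axes differ between panels and do not start at 0. ACTN3 and MB lay lower in shRNA5 dox+ than in shRNA5 dox-, and higher in shRNA1 dox+ than in shRNA1 dox-.

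The effect of doxycycline in shRNA5 lines minus that in shRNA1 lines was tested on the same probes. It passed for 3 of 14696 probes (0.0204%) at an adjusted p of 0.05 in limma, and at an unadjusted p of 0.05 for 1813 (12.3%). With the replicate number as a fixed block 0 passed, with adjusted p in limma of 0.0668 for ACTN3, 0.0954 for MB and 0.0879 for the probe of RAP1GDS1. In that fit 5_40dox+, which has no partner, does not enter the shRNA5 effect. Leaving out each of the 11 arrays in turn gave between 0 and 4. Without background correction the differences below were -1.33 for ACTN3, -1.49 for MB and 1.04 for the probe of RAP1GDS1, and 0 probes passed. ACTN3, an actinin of fast muscle fibres, had 5.69, 5.39 and 5.57 on the shRNA5 dox+ arrays, against 6.09 and 6.27 on the dox- arrays. Only 1 of the 3 shRNA5 dox+ arrays detected it. It had means of 7.0 in shRNA1 dox+ and 5.10 in shRNA1 dox-, where it was detected on 0 of 3 arrays. The effects were -0.63 and 1.89, and their difference was -2.52 with a standard error of 0.28 (adjusted p = 0.00952 in limma). MB, myoglobin, had 6.91, 6.62 and 6.31 on the shRNA5 dox+ arrays, against 7.60 and 7.14 on the dox- arrays, with means of 6.97 in shRNA1 dox+ and 5.16 in shRNA1 dox-. The difference of its effects was -2.56 with a standard error of 0.36 (adjusted p = 0.039 in limma). MB too was detected on 0 of 3 shRNA1 dox- arrays, so the effect there rests on levels below detection in that group.

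A probe of RAP1GDS1, a guanine nucleotide exchange factor, had 5.99, 6.09 and 6.20 on the shRNA5 dox+ arrays, against 4.85 and 4.99 on the dox- arrays, where it was not detected. It was at least 1.30-fold higher in shRNA5 dox+ and had means of 5.00 in shRNA1 dox+ and 6.03 in shRNA1 dox-. The probe passed the detection rule through the shRNA5 dox+ arrays alone. It was detected on 0 of 3 shRNA1 dox+ arrays and on 2 of 3 shRNA1 dox- arrays. Both effects therefore rest on levels below detection in 1 group. The difference of effects was 2.20 with a standard error of 0.29 (adjusted p = 0.024 in limma). The brighter RAP1GDS1 probe gave 0.30, and the remaining one -0.18, neither past the threshold, and the gene was named with its values in view. TXNIP, a thioredoxin inhibitor that glucose induces, had effects of -0.68 and 2.51 in the 2 hairpins, and CYP26B1, a retinoic acid hydroxylase, of -0.27 and 1.47. Those differences did not pass (adjusted p = 0.177 and 0.107 in limma). ZNF480 and NLRP12 completed the 6 genes with the smallest p, with adjusted p of 0.177 each in limma.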

How the data were processed

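Total RNA of NT2D1 cells was hybridised to Illumina bead arrays, 1 per sample. Per the file headers, raw intensity values with a detection p-value for each probe and array make up the non-normalized table deposited. The deposited processed intensity values of the same arrays differ from a quantile normalisation of the raw columns by at most 0.0132%, and served as an alternative. The submitters' processing notes name limma. Background correction (from detection p, offset 16), quantile normalisation and log2 were done with neqc on all 11 arrays (limma 3.58.1, R 4.3.3, statmod 1.5.0). Probes detected at p under 0.01 on at least 2 of the 5 shRNA5 arrays were fitted with 1 mean per group over 11 arrays and eBayes, two-sided, with Benjamini-Hochberg adjustment over 14696 probes. Arrays of 1 group are taken as separate samples. If they are not separate cultures, p-values measure technical spread.

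Probes were named through the platform annotation, with symbols updated through RefSeq. Of 48803 probes 28098 had 1 symbol and 13 had several, and of the 14696 measured 12610 had 1 symbol. A gene is its brightest measured probe. Of the 190 genes named by rule 45 had several measured probes, and in 34 these shared a direction. The rule took L1TD1 and 5 core factors, up to 12 genes per direction by size among those past the threshold without overlap (filled up at an unadjusted p under 0.01), 4 genes per list by p, 8 per direction by the gap of 5_40dox+, and 6 by p for the difference of effects. The arrays, lists and rule were chosen with earlier results of these data known, so list counts are descriptions. Slide and scan batch are not given in the sources used here. Deviations of same-numbered arrays correlated by 0.0538 for number 4 and 0.0897 for number 5, which does not show a pairing, and the number is read as the clone from the titles and the design text alone. The fit was tested on simulated data. The number of arrays limits the precision.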

Additional observations from a re-analysis of the deposited data

Results flagged for a closer look

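Probes stand here because the doxycycline effect differed between the 2 hairpins by a test of that difference. It was -2.52 for ACTN3 (shRNA5 -0.63, shRNA1 1.89), -2.56 for MB (shRNA5 -0.76, shRNA1 1.81) and 2.20 for the RAP1GDS1 probe (shRNA5 1.17, shRNA1 -1.03). Each was undetected on every array of at least 1 of the 4 groups.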

How the results depend on the processing

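Under 23 alternatives, 0 probes were called for dox+ against dox- in shRNA5, except 1 probe without a symbol when 5_39dox+ was left out, so leaving out each array gave 0 to 1. For L1TD1 the difference ran from -1.04 without 5_39dox+ to -0.66 without 5_40dox+, and over all settings the adjusted p ran from 0.128 to 1. A fixed block for the replicate number takes 5_40dox+, which has no partner, out of the shRNA5 estimate. With that block the L1TD1 difference was -0.66 (adjusted p = 0.736), 0 probes were called, and for the difference between hairpins the count was 0 in place of 3. That count was also 0 on the authors' deposited values, without background correction and with detection on all 5 arrays, 1 when scaled to a common median or with no filter, and 178 with array weights. Leaving out each array gave 0 to 4, with 0 without either dox- array of shRNA5 and 1 without any dox+ array of shRNA5, 1_1dox-, 1_6dox- or 1_10dox+. The random block, with a consensus correlation of 0.159, gave 3. The causes were not tested. Of 4296 values of named genes under these settings, 58 turned sign and 0 passed, and of 920 list medians 55 turned sign. In simulated data of this size, with the same spread in every group, 41 of 100 probes shifted by 1 log2 unit were called.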
